A study of Mus musculus with 2 samples.

Results

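Fibro-adipogenic progenitor-like cells (FAPLs) form 1 of the precursor clusters that were described in cultures of both white and brown fat, and here white FAPLs (wFAPLs) were set against brown FAPLs (bFAPLs) over all genes. The members were taken from the authors' tables of cell barcodes and cluster names: 256 cells named wFAPLs in the white library and 279 named bFAPLs in the brown library, which is 535 of the 12270 cells in both libraries and of the 3998 precursor cells that carry a name. The tables used here name 1999 precursor cells per depot, so these are only some of the FAPLs in each library. The 15 cells named Differentiating wFAPLs were left out. Subcutaneous white fat (WAT) and interscapular brown fat (BAT) of male and female C57/BL6 pups at postnatal day 0 were digested with collagenase for 35 min (WAT) or 50 min (BAT), and the plated cells were grown to confluency in 4 days. Each depot is 1 library made from a pool of 4 pups and sequenced with a droplet method that reads the 3′ ends of transcripts and counts unique molecular identifiers (UMIs). With 1 library per depot there is no replicate and no test, a difference between depots cannot be told apart from a difference between the 2 cultures or libraries, and every interval below covers counting error only.

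Fibro-adipogenic progenitors are stromal cells that make collagen and other matrix and can become fibroblasts or fat cells, and they are found between the parenchymal cells of muscle and fat. Fat depots arise from mesenchyme at different places in the body, and cells taken from them keep in culture a record of that place in the Hox genes, whose order along each Hox cluster follows the order of the body regions in which they are used, and in other patterning factors. Interscapular brown fat comes from somites near the shoulder, where Zic1, a factor of the early somite, is used.

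The levels below are in CPM, the UMIs of a gene summed over the cells of a cluster and scaled to 1000000 UMIs of those cells, with an exact 95% Poisson interval in parentheses. The wFAPLs held 7170296 UMIs, with a median of 26730.5 per cell, and the bFAPLs 7537811, with a median of 25194. Cells in the G1 phase made up 67.6% of wFAPLs (61.5 to 73.3%, Clopper-Pearson) and 67.4% of bFAPLs (61.5 to 72.9%), and the median share of mitochondrial UMIs was 2.98 and 2.79%. A list of 14 genes was taken from those that the study names for FAPLs, and all 14 reached 10 CPM and lay within 2-fold between the depots. Since the study chose them on these cells, they only check the cluster names. The study names other genes for FAPLs that were not among the 14, such as Shox2, which was past 2-fold and is given below. Meox2, a mesodermal homeobox factor, stood at 95.5 CPM (88.5 to 103) in wFAPLs and 97.9 CPM (91.0 to 105) in bFAPLs, against 14.1 and 17.5 CPM in the other precursor cells of the same libraries. Serpinb1a, a protease inhibitor, stood at 76.3 and 94.5 CPM against 6.76 and 8.26 CPM. Markers of myogenic, adipocyte and erythroid cells were each below 10 CPM in both clusters, with sums of at most 0.796 CPM. Other lists were not absent. Tenocyte markers summed to 119.9 CPM in wFAPLs and 185 CPM in bFAPLs, and chondrocyte markers to 102 and 118 CPM. Glial markers summed to 31.1 and 24.9 CPM, mesothelial ones to 13.8 and 8.23 CPM. Endothelial markers summed to 10.0 and 5.97 CPM, and keratinocyte ones to 7.11 and 7.56 CPM. The 7 myeloid markers summed to 36.0 CPM in wFAPLs and 13.5 CPM in bFAPLs, of which the macrophage lysozyme Lyz2 gave 19.9 and 6.50 CPM, and 97.2% of the Lyz2 UMIs of wFAPLs lay in 5% of the cells.

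White and brown FAPLs were close over most genes. Of 9136 genes that reached 10 CPM in either cluster, 93.9% lay within 1.5-fold, and the median log2 ratio of wFAPLs over bFAPLs was 0.03. The level was at least 2-fold higher in wFAPLs for 95 genes (1.04%) and at least 2-fold higher in bFAPLs for 59 genes (0.646%). For 51 and 29 of these the whole interval of the ratio, an exact conditional binomial one, lay past 2-fold, and 18 and 13 were past 4-fold. These shares of all genes are the background of each count of list members below. The genes farthest apart were positional: posterior Hox genes on the white side and Zic1 on the brown side.

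**Figure D1:**
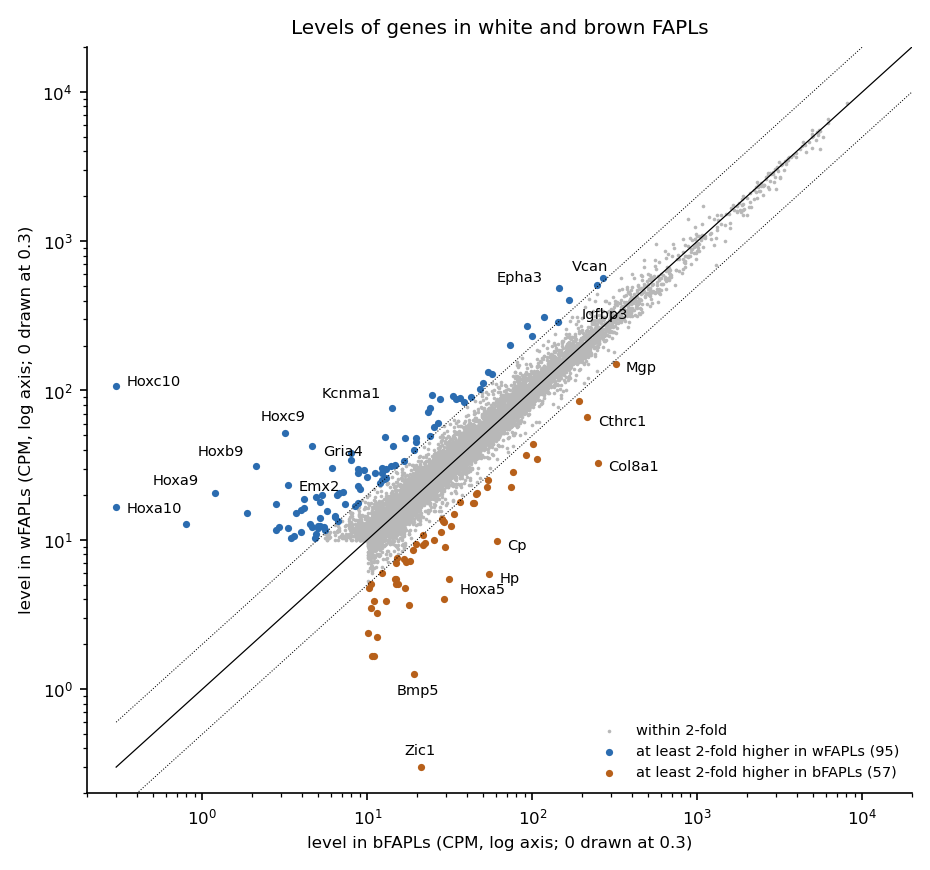
Levels of the genes that reached 10 CPM in either cluster, in bFAPLs (horizontal) and wFAPLs (vertical), on log axes in CPM with genes at 0 drawn near the lower edge. The solid line marks equal levels and the dotted lines 2-fold, and the coloured points are the 95 genes at least 2-fold higher in wFAPLs and 57 of the 59 at least 2-fold higher in bFAPLs.

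The promoters of 3 positional genes are shown because these genes lie at the extremes of the comparison. Zic1 (ENSMUSG00000032368) had no UMI in wFAPLs, Hoxa10 (ENSMUSG00000000938) had none in bFAPLs, and Hoxa5 (ENSMUSG00000038253) is an anterior neighbour of Hoxa10 that was higher in bFAPLs. Each window runs from 250 bases before to 50 bases after a transcript start of the gene in RefSeq (GRCm38.p6), which for Zic1 lies inside the end of the gene model given below, is written 5′ to 3′ on the minus strand, that of all 3 genes, and has each CG dinucleotide, the site of DNA methylation in mammals, in capitals.
Zic1, chr9:91365719-91366018: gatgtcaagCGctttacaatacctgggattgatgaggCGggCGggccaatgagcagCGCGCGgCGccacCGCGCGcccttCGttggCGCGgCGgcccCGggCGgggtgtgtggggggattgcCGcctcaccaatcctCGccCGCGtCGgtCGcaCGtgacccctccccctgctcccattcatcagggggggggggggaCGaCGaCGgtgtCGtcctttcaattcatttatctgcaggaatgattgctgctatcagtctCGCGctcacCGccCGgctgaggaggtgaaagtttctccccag
Hoxa10, chr6:52240805-52241104: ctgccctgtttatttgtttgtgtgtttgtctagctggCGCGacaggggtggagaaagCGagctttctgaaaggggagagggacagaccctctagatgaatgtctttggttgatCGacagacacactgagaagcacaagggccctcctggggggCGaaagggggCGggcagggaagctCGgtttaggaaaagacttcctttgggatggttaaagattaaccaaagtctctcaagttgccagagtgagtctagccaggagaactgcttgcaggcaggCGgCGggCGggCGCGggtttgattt
Hoxa5, chr6:52204538-52204837: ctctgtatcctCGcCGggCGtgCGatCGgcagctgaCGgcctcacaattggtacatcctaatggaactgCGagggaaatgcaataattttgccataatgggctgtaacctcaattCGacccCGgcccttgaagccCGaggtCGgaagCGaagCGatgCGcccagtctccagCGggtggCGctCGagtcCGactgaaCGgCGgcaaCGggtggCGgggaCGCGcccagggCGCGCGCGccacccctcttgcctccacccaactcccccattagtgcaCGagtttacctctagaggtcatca
The motif CG reads the same on both strands. It occurs 31 times in the Zic1 window, 12 times in that of Hoxa10 and 29 times in that of Hoxa5, where the median over 32851 such windows is 7. As many or more were found in 10.6% of windows for Zic1, 39.6% for Hoxa10 and 12.9% for Hoxa5. Hoxc10 and Hoxc9 were not matched in the promoter table. DNA methylation was not measured here, and the count of CG is a description of the windows.

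Of the 39 Hox genes, 18 reached 10 CPM in either FAPL cluster, and 8 of these were at least 2-fold higher in wFAPLs and 1 in bFAPLs, where 1.04% and 0.646% of all genes were. Hoxc10 (ENSMUSG00000022484, chromosome 15, 102966796 to 102971893, plus strand), a homeobox factor of the lumbar region, had 775 UMIs in wFAPLs, 108 CPM (101 to 116), and 0 UMIs in bFAPLs, which allows up to 0.398 CPM at 3 counts. It was thus at least 272-fold higher in wFAPLs. Hoxa10 (chromosome 6, 52231197 to 52240854, minus strand) had 120 UMIs, 16.7 CPM (13.9 to 20.0), in wFAPLs and none in bFAPLs, at least 42.1-fold higher in wFAPLs. Hoxa9, Hoxb9 and Hoxc9 of paralog group 9, which act in the thoracic and lumbar body, had UMIs in both clusters at very unequal levels, while Hoxd9 was low in both, at 1.67 and 1.99 CPM. Hoxc9 (ENSMUSG00000036139) stood at 51.6 CPM (46.5 to 57.1) in wFAPLs and 3.18 CPM (2.04 to 4.74) in bFAPLs, 16.2-fold higher in wFAPLs. Hoxa9 stood at 20.5 against 1.19 CPM, a log2 ratio of 4.10 (3.14 to 5.26), and Hoxb9 at 31.1 against 2.12 CPM, a log2 ratio of 3.87 (3.14 to 4.70). In brown myeloid cells, which are used below to gauge free RNA, Hoxb9 stood at 2.45 CPM, Hoxc9 at 0.978 CPM and Hoxa9 at 0 CPM. The low level of Hoxb9 in bFAPLs was thus no higher than in these cells.

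Nearer the head end of the clusters the order turned in HoxA and HoxB, but not in HoxC or HoxD. Hoxa5, a factor of the neck and upper thorax, stood at 5.44 CPM (3.87 to 7.44) in wFAPLs and 31.4 CPM (27.6 to 35.7) in bFAPLs, 5.78-fold higher in bFAPLs. Summed over the paralog groups 1 to 5, the HoxA genes gave 23.6 CPM in wFAPLs and 74.3 CPM in bFAPLs, and all 5 genes were higher in bFAPLs. The groups 9 to 13 of HoxA summed to 37.2 against 1.19 CPM. HoxB had the same 2 ends, with 69.0 against 105 CPM in groups 1 to 5, a log2 ratio of -0.60 (-0.76 to -0.43), and 31.1 against 2.26 CPM in groups 9 to 13. In HoxC the white cells were higher at both ends, with 82.1 against 24.8 CPM in groups 1 to 5 and 164 against 3.58 CPM in groups 9 to 13. Between them, Hoxc8 stood at 71.7 against 23.3 CPM, a log2 ratio of 1.62 (1.37 to 1.87), and Hoxc6 at 58.0 against 36.9 CPM, a log2 ratio of 0.65 (0.43 to 0.88). HoxD stood at 5.16 against 10.9 CPM in groups 1 to 5, a log2 ratio of -1.08 (-1.68 to -0.50), at 15.6 against 22.4 CPM in groups 6 to 8, and at 1.67 against 1.99 CPM in groups 9 to 13. The grouping by paralog number was chosen after the single values had been seen. The gene models of Hoxc5, Hoxc6, Hoxc8, Hoxc9 and Hoxc10 overlap in the annotation, since that of Hoxc5 runs from 102967443 to 103017429 on chromosome 15, so reads can be assigned among these neighbours with error, and their single values are uncertain.

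**Figure D2:**
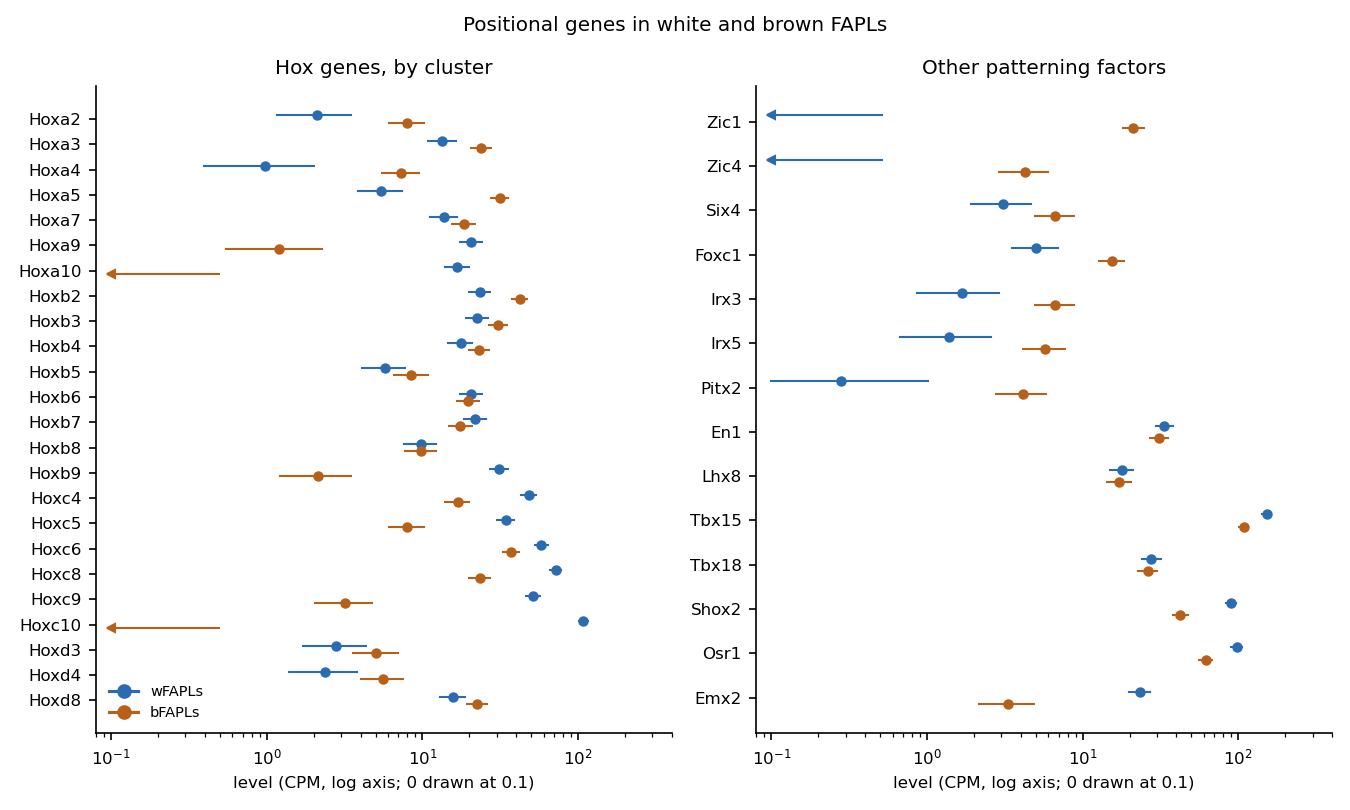
Levels of Hox genes (left) and other patterning factors (right) in wFAPLs and bFAPLs, in CPM on a log axis, with exact 95% Poisson intervals and with levels of 0 drawn as triangles at the left edge. The posterior genes of HoxA, HoxB and HoxC lie farther right in wFAPLs, while Zic1 and the anterior HoxA genes lie farther right in bFAPLs and the intervals of En1, Lhx8 and Tbx18 overlap.

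Of 56 other patterning factors, 18 reached 10 CPM, 2 of them at least 2-fold higher in wFAPLs and 2 in bFAPLs, beside 1.04% and 0.646% of all genes, with a median log2 ratio of 0.17. Zic1 (chromosome 9, 91358058 to 91365810, minus strand), a zinc finger factor of dorsal somites, had 0 UMIs in wFAPLs, which allows up to 0.418 CPM, and 160 UMIs, 21.2 CPM (18.1 to 24.8), in bFAPLs, at least 50.7-fold higher in bFAPLs. Foxc1, a forkhead factor of mesoderm, stood at 5.02 against 15.4 CPM, a log2 ratio of -1.62 (-2.20 to -1.07). On the white side, Emx2, a homeobox factor of the shoulder and pelvic girdles and the urogenital tract, stood at 23.3 CPM (19.9 to 27.1) against 3.32 CPM (2.15 to 4.90), 7.02-fold higher in wFAPLs. Its antisense transcript Emx2os stood at 30.3 against 6.10 CPM. Shox2, a homeobox factor of the proximal limb, stood at 90.1 against 42.3 CPM, 2.13-fold higher in wFAPLs. Other factors that pattern the trunk and limbs were nearer to each other. En1 stood at 33.5 and 30.9 CPM and Tbx18 at 27.6 and 26.1 CPM, and the interval of each ratio held 0. Osr1 stood at 97.5 and 61.8 CPM, a log2 ratio of 0.66 (0.49 to 0.83).

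Lhx8, a LIM homeobox factor often used to mark brown fat, was near equal in FAPLs and unequal over the other precursor cells. It stood at 17.9 CPM (14.9 to 21.2) in wFAPLs and 17.2 CPM (14.4 to 20.5) in bFAPLs, a log2 ratio of 0.05 (-0.31 to 0.41). In the other precursor cells it stood at 5.11 CPM in WAT and 27.9 CPM in BAT, a log2 ratio of -2.45. The wFAPLs lay above each of the other white precursor clusters, which ranged from 1.93 to 8.15 CPM. The bFAPLs lay inside the range of the other brown ones, 5.88 to 39.9 CPM.

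The positional genes were also counted cell by cell. At least 1 UMI of Hoxa9, Hoxb9, Hoxc9, Hoxa10 or Hoxc10 was found in 98.8% of wFAPLs (96.6 to 99.8%) and in 35 of 279 bFAPLs, 12.5% (8.90 to 17.0%). Free RNA puts UMIs into droplets of cells that do not use a gene, and the myeloid cells, which should lack these genes, gave 6.90% in the white library (29 cells, median 30076 UMIs) and 5.33% in the brown one (75 cells, median 25188 UMIs). With each cell drawn down to 10000 UMIs, the shares were 85.9% of wFAPLs, 5.02% of bFAPLs (2.77 to 8.28%) and 2.67% of brown myeloid cells (0.325 to 9.30%), so the bFAPL share could not be told from background at this depth. In the other brown precursor cells the same share was 35.5%, and 19.1% (17.2 to 21.0%) after thinning, which lies above the interval of bFAPLs. Gene by gene, Hoxb9 stood at 2.12 CPM in bFAPLs and at 6.46 to 16.6 CPM in the other brown precursor clusters, and Emx2 at 3.32 against 4.75 to 13.6 CPM.

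Zic1 was found in 29.0% of bFAPLs (23.8 to 34.7%), 43.2% of the other brown precursor cells and 9.33% of brown myeloid cells. After thinning these shares were 19.4% (14.9 to 24.5%), 22.3% (20.4 to 24.4%) and 6.67%. A UMI of it was found in 0 of 256 wFAPLs, which at 3 counts allows a share of cells with a UMI of up to 1.17%, and in 0 of 1728 other white precursor cells. These shares limit cells with a UMI, not cells that express the gene. Cells with Zic1 and with 1 of the 5 posterior Hox genes made up 4.66% of bFAPLs (2.50 to 7.84%), and 1.08% after thinning.

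Secreted signals of the BMP pathway, which acts on skeletal and fat precursors, lay past 2-fold in both directions. Of 29 listed genes, 22 reached 10 CPM, 3 at least 2-fold higher in wFAPLs and 2 in bFAPLs, where 1.04% and 0.646% of all genes were, with a median log2 ratio of -0.09. Bmp5 (ENSMUSG00000032179) stood at 1.26 CPM (0.574 to 2.38) in wFAPLs and 19.1 CPM (16.1 to 22.5) in bFAPLs, 15.2-fold higher in bFAPLs. Bmp4 stood at 17.7 CPM (14.8 to 21.1) and 43.6 CPM (39.1 to 48.6), 2.46-fold higher in bFAPLs. The ligands on the white side were Bmp3 and Gdf10, both related to each other and often opposed to other BMPs. Bmp3 stood at 15.9 against 3.98 CPM, a log2 ratio of 2.00 (1.41 to 2.63), and Gdf10 (ENSMUSG00000021943) at 93.6 CPM (86.6 to 101) against 24.5 CPM (21.1 to 28.3), 3.81-fold higher in wFAPLs. Chrdl1, which binds BMPs outside the cell, stood at 29.6 against 12.9 CPM, 2.30-fold higher in wFAPLs. By cells, Gdf10 was found in 70.7% of wFAPLs and 27.6% of bFAPLs (51.2 and 15.8% after thinning), against 6.90 and 2.67% of myeloid cells.

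In the Wnt pathway 10 of 35 genes reached 10 CPM, and 3 were past 2-fold, beside 1.69% of all genes. Rspo2, a secreted enhancer of Wnt signals, stood at 22.6 CPM (19.2 to 26.4) in wFAPLs and 74.0 CPM (68.0 to 80.4) in bFAPLs, while Lgr4, a receptor of R-spondins, went the other way, with 113 CPM (106 to 121) against 50.0 CPM (45.1 to 55.3). Dkk2, an extracellular modulator of Wnt signals, stood at 12.1 against 2.92 CPM, but 97.7% of its UMIs in wFAPLs lay in 5% of the cells. The other 7 genes lay within 2-fold.

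The insulin-like growth factor system, which drives growth and fat cell formation, had members past 2-fold on the white side. Of 12 genes 11 reached 10 CPM, 3 were at least 2-fold higher in wFAPLs and 0 in bFAPLs, where 1.04% and 0.646% of all genes were. The median log2 ratio was 0.33, with 7 above 0 and 4 below, and that of the summed level was 0.07. In male cells the median was 0.13. Igf1 stood at 87.7 CPM (81.0 to 94.9) in wFAPLs and 27.6 CPM (24.0 to 31.6) in bFAPLs, a log2 ratio of 1.67. Igf1 was also found in 100.0 and 98.7% of the myeloid cells of the 2 libraries, and without the FAPLs that hold a UMI of the myeloid genes Tyrobp or C1qa its log2 ratio was 1.63. The binding protein Igfbp3 stood at 405 against 167 CPM, 2.43-fold higher in wFAPLs. Igfbp5 stood at 49.4 against 24.0 CPM in all cells, but its log2 ratio was 1.60 in female cells and -0.58 in male cells. Kitl, the ligand of the receptor Kit, stood at 76.3 CPM (70.0 to 83.0) against 24.0 CPM (20.6 to 27.8), 3.18-fold higher in wFAPLs. It was found in 51.7 and 40.0% of the myeloid cells, and its log2 ratio was 1.67 in all FAPLs and 1.71 without those that hold a Tyrobp or C1qa UMI.

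Guidance cues and receptors, which steer growing axons and moving cells, gave 27 of 42 genes at 10 CPM, 3 at least 2-fold higher in wFAPLs and 1 in bFAPLs, beside 1.04% and 0.646% of all genes. Epha3 (ENSMUSG00000052504, chromosome 16, 63543534 to 63864175, minus strand), a receptor for membrane-bound ephrins, stood at 484 CPM (468 to 501) in wFAPLs and 146 CPM (137 to 155) in bFAPLs, 3.32-fold higher in wFAPLs. Its ligand Efna5 lay on the other side, at 34.9 CPM (30.7 to 39.5) against 107 CPM (99.3 to 114), 3.06-fold higher in bFAPLs. Epha3 was found in 94.9% of wFAPLs and 65.6% of bFAPLs, and in 88.3 and 50.5% after thinning, against 0 of 29 white myeloid cells, which at 3 counts allows up to 10.3%, and 5.33% of brown ones. Sema5a, a transmembrane semaphorin, stood at 88.4 against 36.4 CPM and Sema3d, a secreted one, at 10.2 against 3.45 CPM. The secreted cues Slit2 and Slit3 were within 2-fold, with log2 ratios of 0.73 (0.66 to 0.81) and 0.76 (0.70 to 0.81).

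The main fibrillar matrix did not separate the depots, and a few minor components did. Of 43 collagen genes 23 reached 10 CPM, with a median log2 ratio of 0.10, and Col1a1, a chain of type I collagen, stood at 5289.9 CPM in wFAPLs and 5352 CPM in bFAPLs. Col8a1 (ENSMUSG00000068196, chromosome 16, 57624258 to 57754737, minus strand), a short-chain collagen of vessel walls and basement membranes, was the exception on the brown side, with 32.9 CPM (28.8 to 37.4) in wFAPLs and 250.3 CPM (239 to 262) in bFAPLs, 7.61-fold higher in bFAPLs. It was found in 14.5% of wFAPLs and 63.8% of bFAPLs (9.77 and 50.2% after thinning), and in 3.45 and 20.0% of myeloid cells. On the white side, Col24a1 stood at 16.2 against 4.11 CPM and Col28a1 at 18.0 against 5.17 CPM.

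Other matrix genes went in both directions within each family. Among small leucine-rich proteoglycans, which bind collagen fibrils, Podn stood at 29.3 against 9.55 CPM, 3.07-fold higher in wFAPLs, and Aspn at 84.7 CPM (78.1 to 91.7) against 191 CPM (182 to 201), 2.26-fold higher in bFAPLs. Of the elastic fibre genes, 20 of 21 were within 2-fold, and the exception was the microfibril protein Fbn2, with 571 CPM (554 to 589) in wFAPLs and 268 CPM (256 to 279.9) in bFAPLs. Eln, elastin itself, had a log2 ratio of 0.57 and Fbln5, which helps to assemble it, one of -0.86. The proteoglycan Vcan stood at 506 against 246 CPM and the matricellular protein Ccn3 at 287 against 142 CPM, which stayed past 2-fold in 7 of 13 alternatives. Sulf1, which trims sulfates from heparan sulfate outside the cell, stood at 269 CPM (257 to 281) against 92.6 CPM (85.9 to 99.7), 2.91-fold higher in wFAPLs. In bFAPLs the secreted protein Cthrc1 was higher, with 215 CPM (205 to 226) against 66.1 CPM (60.3 to 72.3), as were the calcification inhibitor Mgp, with 319.9 against 150.2 CPM, and the basement membrane protein Nid2, with 46.2 against 20.5 CPM.

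Plasma proteins were among the genes farthest to the brown side. Hp, haptoglobin, which binds free haemoglobin, stood at 5.86 CPM (4.22 to 7.92) in wFAPLs and 54.7 CPM (49.5 to 60.2) in bFAPLs, 9.33-fold higher in bFAPLs, with 92.9% of the white UMIs in 5% of the cells. Cp, ceruloplasmin, which carries copper and oxidises iron, stood at 9.76 CPM (7.61 to 12.3) against 61.2 CPM (55.7 to 67.0), 6.26-fold higher in bFAPLs. Clu, a secreted chaperone, stood at 5.02 against 14.9 CPM. Of the 6 complement and acute-phase genes at 10 CPM these 3 were at least 2-fold higher in bFAPLs, beside 0.646% of all genes. C1ra, a protease of the classical complement pathway, stood at 17.6 against 8.76 CPM, 2.01-fold higher in wFAPLs, as were 1.04% of all genes by 2-fold or more. It stayed past 2-fold in 5 of 12 alternatives, with a log2 ratio as low as 0.31. By cells, Cp was found in 13.7% of wFAPLs and 54.5% of bFAPLs (6.25 and 33.7% after thinning), against 3.45 and 13.3% of myeloid cells.

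The remaining genes with the largest ratios had varied roles. Gria4, a subunit of AMPA glutamate receptors, stood at 42.8 CPM (38.2 to 47.9) in wFAPLs and 4.64 CPM (3.23 to 6.46) in bFAPLs, 9.22-fold higher in wFAPLs. Kcnma1, a large-conductance potassium channel opened by calcium, stood at 76.4 CPM (70.2 to 83.1) against 14.1 CPM (11.5 to 17.0), 5.43-fold higher in wFAPLs. Opcml, a cell adhesion molecule, stood at 29.8 against 8.76 CPM, and Pcdh11x, a protocadherin, at 202 against 73.1 CPM. Cyp7b1, a hydroxylase of oxysterols, stood at 38.4 against 7.96 CPM, and Prdm6, a repressor known from smooth muscle, at 48.8 CPM (43.8 to 54.2) against 12.7 CPM (10.3 to 15.6).

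On the brown side, Mecom, a zinc finger factor, stood at 4.04 CPM (2.71 to 5.81) in wFAPLs and 29.2 CPM (25.5 to 33.3) in bFAPLs, 7.22-fold higher in bFAPLs. Vdr, the vitamin D receptor, stood at 10.0 against 25.5 CPM. Calcrl, a receptor for peptides of the calcitonin family, stood at 11.2 against 27.9 CPM, and was found in 44.8 and 40.0% of the myeloid cells. Of 18 surface proteins used to sort such cells, 3 were at least 2-fold higher in wFAPLs (Epha3, Cd24a and Icam1) and 3 in bFAPLs (Cd200, Eng and Alcam), beside 1.04% and 0.646% of all genes. Cd24a stood at 10.6 against 3.58 CPM, and Eng, a co-receptor for TGF-beta ligands, at 25.1 against 53.6 CPM. Alcam stayed past 2-fold in 7 of 12 alternatives.

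Genes of contractile and mural cells, which overlap with those of activated fibroblasts, mostly leaned slightly to the brown side. Of 12 smooth muscle genes at 10 CPM, 8 had a ratio below 0 on the log2 scale, with a median of -0.27, and Acta2, smooth muscle actin, stood at 4155 CPM in wFAPLs and 5499.9 CPM in bFAPLs. In male cells the median was 0.22. Between the other precursor cells of the 2 libraries it was -0.42. Myh11 (ENSMUSG00000018830), the myosin heavy chain of smooth muscle, was the 1 gene past 2-fold and lay on the other side, with 102 CPM (95.0 to 109.9) against 48.4 CPM (43.6 to 53.7). It was found in 33.2% of wFAPLs and 24.4% of bFAPLs, and in 22.3 and 14.7% after thinning. With the labels carried over to the cells that have none, its log2 ratio was 0.73 in place of 1.08. Of 9 pericyte genes, which mark the cells around capillaries, Rgs5 and Rgs4, regulators of G protein signals, were at least 2-fold higher in bFAPLs, beside 0.646% of all genes. The other 7 were within 2-fold, and 3 of the 9 had a log2 ratio above 0, up to 0.86. Rgs4 had a log2 ratio of -2.70 in FAPLs and of -2.61 in the other precursor cells, so its difference was not particular to FAPLs. Rgs5 stood at 28.3 CPM (24.6 to 32.5) against 76.8 CPM (70.7 to 83.3), a log2 ratio of -1.44, and of -2.61 over the cells without a Myh11 UMI.

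Of the 18 adipogenic regulators at 10 CPM, none was past 2-fold between the depots, and their median log2 ratio was 0.01. Cebpb, an early adipogenic factor, stood at 188 CPM in both clusters, and Cebpa, a late one, at 35.4 CPM in wFAPLs and 54.8 CPM in bFAPLs. Pparg, the master regulator of fat cells, gave the lowest ratio of the list, with 9.48 CPM (7.36 to 12.0) against 17.0 CPM (14.2 to 20.2), a log2 ratio of -0.84 (-1.29 to -0.41), and was found in 65.5 and 65.3% of the myeloid cells. Nrip1, a co-repressor, gave the highest, with 185 against 109 CPM. Of 14 genes of lipid handling, 10 had a ratio below 0, with a median of -0.18. Of these, Fabp4, a fatty acid carrier of fat cells and macrophages, and Mgll, a lipase, were at least 2-fold higher in bFAPLs, beside 0.646% of all genes. Fabp4 stood at 37.2 CPM (32.9 to 42.0) against 91.4 CPM (84.7 to 98.5), a log2 ratio of -1.30 that was -0.58 over the cells without a Myh11 UMI. It was found in 75.9 and 73.3% of the myeloid cells. Of 16 thermogenic genes, Lhx8 was the 1 that reached 10 CPM in either cluster.

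**Figure D3:**
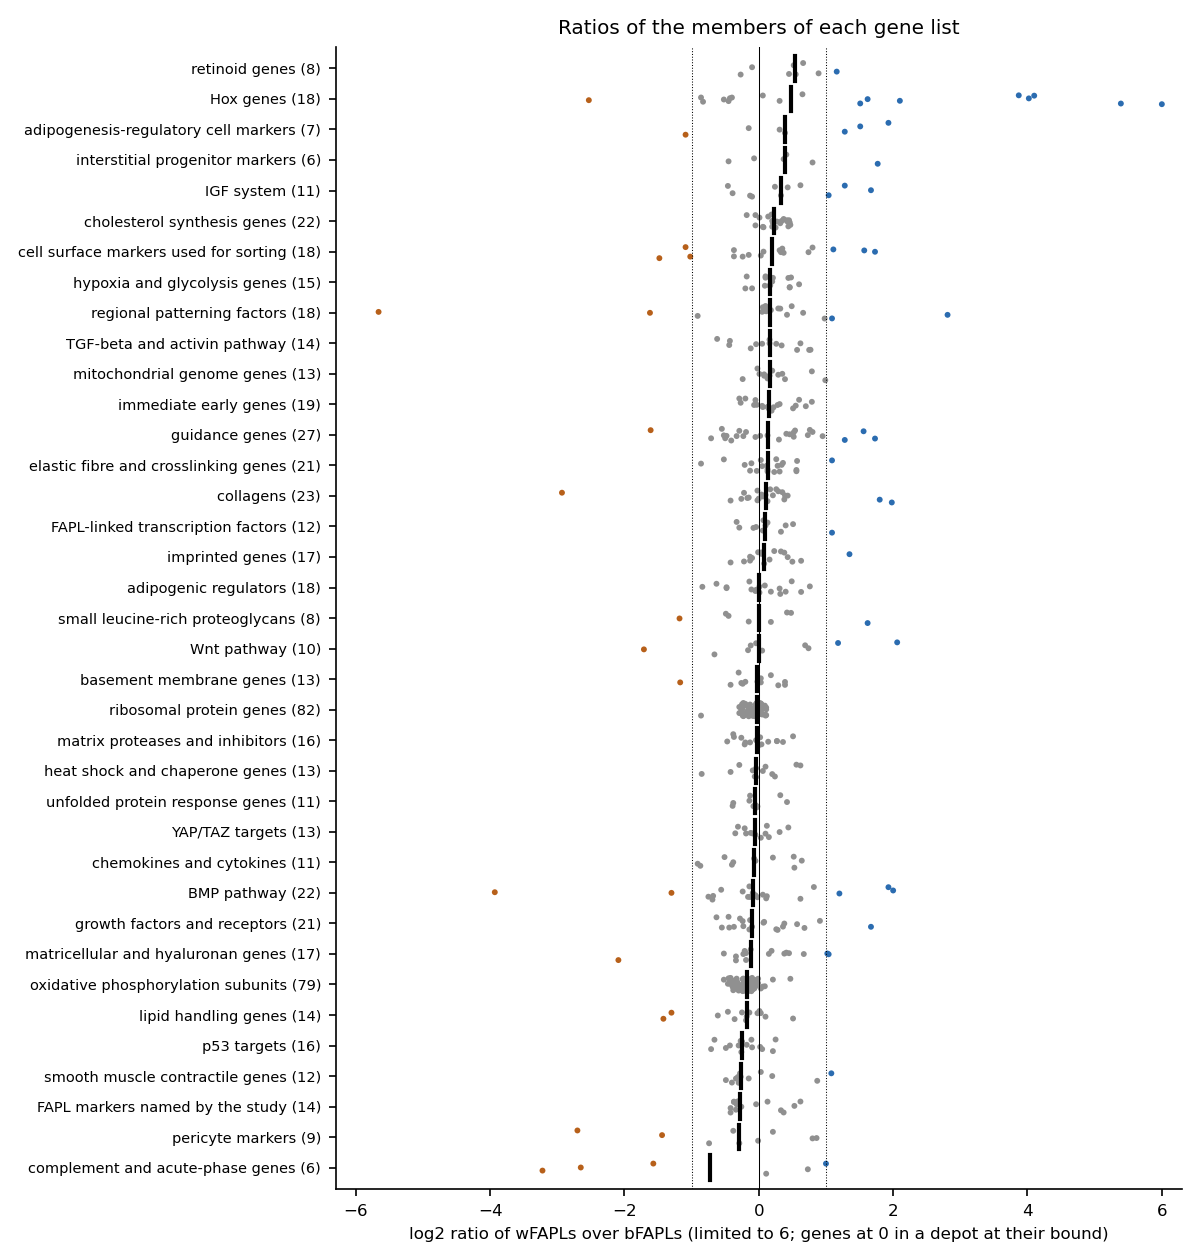
Log2 ratios of wFAPLs over bFAPLs of the members of each gene list with 6 or more genes at 10 CPM, 1 point per gene, limited to 6, with the median as a black bar and the number of genes in parentheses. Most medians lie near 0 and most points between the dotted lines at 2-fold. Several lists have members beyond these lines on both sides, among them the Hox genes, patterning factors, complement genes, BMP pathway, guidance genes and collagens.

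Metabolic gene sets shifted by small amounts. Of 85 nuclear-encoded subunits of oxidative phosphorylation 79 reached 10 CPM, none was past 2-fold, and 74 had a ratio below 0 and 5 above, with a median of -0.17 against 0.03 over all genes. Under other scalings and in the subsets of cells tried, 64 to 75 of them were below 0. The 13 genes of the mitochondrial genome had a median of 0.16, on the other side. Of 22 cholesterol synthesis genes 19 had a ratio above 0, with a median of 0.23. Targets of p53 had a median of -0.25, with 12 of 16 below 0, and immediate early genes, which respond to handling and stress, one of 0.15, with no member past 2-fold. Between the other precursor cells of the 2 libraries, the median was -0.20 for the oxidative phosphorylation subunits and -0.29 for p53 targets, so these shifts were not particular to FAPLs. For the cholesterol synthesis genes it was 0.05 there.

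The genes past 2-fold in FAPLs were also looked up in the other precursor cells of the same 2 libraries. Among these cells, 103 of 9019 genes (1.14%) were at least 2-fold higher in WAT and 79 (0.876%) in BAT. Of the 154 genes past 2-fold in FAPLs, 90 were past it the same way in the other precursor cells, 58.4%. This share was 43.8% with thinned cells, 47.4% without cells with a Myh11 UMI, 22.5% with no minimum level, 20.3% in male cells and 77.5% at a minimum of 50 CPM. On the white side 51 of 95 were, a further 39 had the same direction within 2-fold, and 5 the opposite one. On the brown side these numbers were 39 of 59, 17 and 3. The comparisons share the libraries, so their likeness is a description.

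Committed adipogenic precursors (CAPs), the cluster that the study names for its commitment to the fat cell fate, differed more between the depots than FAPLs did. Between 674 wCAPs and 296 bCAPs, 201 of 9235 genes (2.18%) were at least 2-fold higher in white and 198 (2.14%) in brown cells, 4.32% in all, against 1.69% in FAPLs. With the CAPs drawn down to 256 and 279 cells the share was 4.46%. Of the 399 genes past 2-fold in CAPs, 123 were past it the same way in FAPLs, 30.8%. The 201 genes higher in wCAPs had a median log2 ratio of 1.44 in CAPs and 0.74 in FAPLs, and the 198 higher in bCAPs one of -1.47 and -0.59. These genes were chosen by their ratio in CAPs, so a smaller median in FAPLs follows in part from the choice.

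Single genes show what differed less in FAPLs. Npr3, a receptor that clears natriuretic peptides, stood at 9.75 CPM in wCAPs and 68.8 CPM in bCAPs, but at 61.5 CPM (55.9 to 67.5) in wFAPLs and 88.4 CPM (81.8 to 95.3) in bFAPLs. Bmp4 stood at 1.86 and 21.0 CPM in CAPs against 17.7 and 43.6 CPM in FAPLs. In each case the white FAPLs, not the brown ones, were farther from the CAPs of their own library. Gas7, a cytoskeletal adaptor, had a log2 ratio of 2.53 in CAPs and 0.44 in FAPLs, and Tenm4, a teneurin, of 3.69 and 1.57. Shox2 stood at 66.3 and 10.5 CPM in CAPs, a log2 ratio of 2.66, and of 1.09 in FAPLs.

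A smaller group separated the FAPLs more than the CAPs. Chrdl1 had a log2 ratio of 0.05 (-0.22 to 0.32) in CAPs and 1.20 (0.85 to 1.56) in FAPLs. Hoxc8 had 0.82 and 1.62, Hoxc9 had 3.16 and 4.02, and Sulf1 had 0.70 and 1.54. For Hoxc8 the lower level of bFAPLs made more of this than the higher level of wFAPLs, with 23.3 CPM against 33.2 CPM in bCAPs and 43.6 CPM over all other brown precursor cells. Of the genes that reached 10 CPM in both pairs and were past 2-fold in both, 2 had opposite sides. Myh11 stood at 6.14 CPM in wCAPs and 13.0 CPM in bCAPs, a log2 ratio of -1.09 (-1.48 to -0.70), against 1.08 (0.89 to 1.26) in FAPLs. Abi3bp (ENSMUSG00000035258), a matrix protein, stood at 59.6 and 245 CPM in CAPs, a log2 ratio of -2.04 (-2.15 to -1.93), and at 83.5 and 38.3 CPM in FAPLs, a log2 ratio of 1.12 (0.92 to 1.33).

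**Figure D4:**
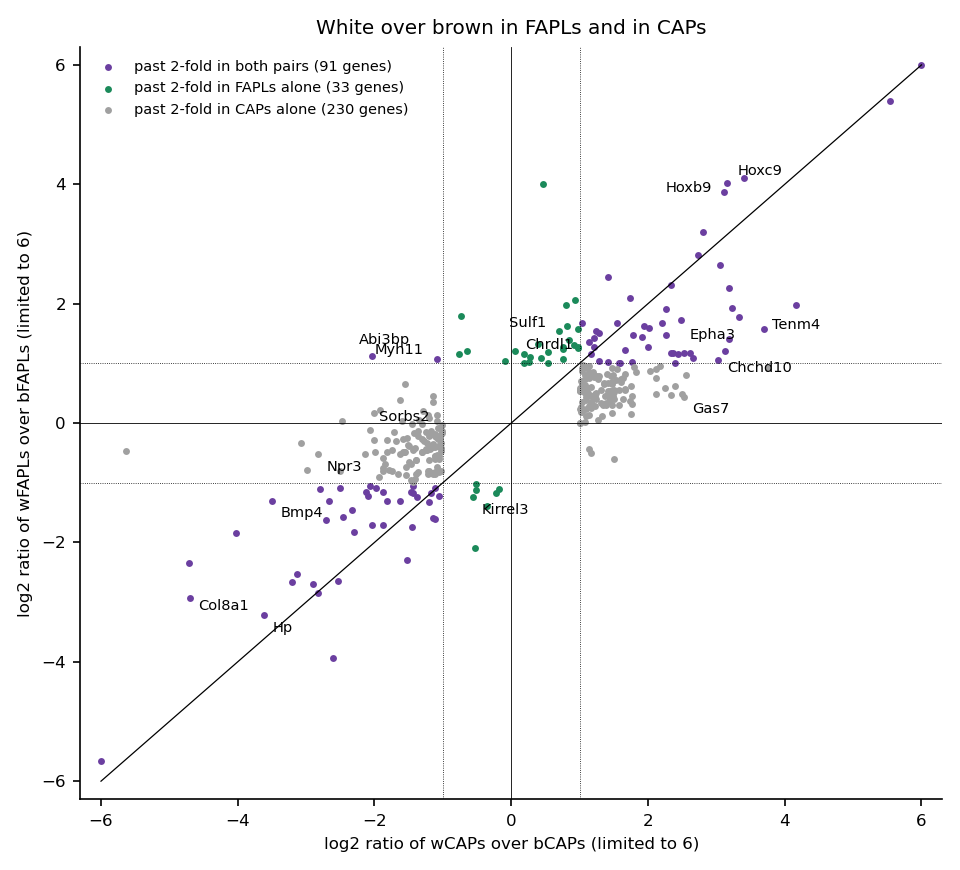
Log2 ratio of white over brown in CAPs (horizontal) and in FAPLs (vertical), limited to 6, for genes that reached 10 CPM in both pairs and were past 2-fold in at least 1. The solid diagonal marks equal ratios and the dotted lines 2-fold; most points lie nearer to 0 on the vertical than on the horizontal axis, and Abi3bp and Myh11 lie at the upper left, with ratios of 1.12 and 1.08 in FAPLs.

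The genes that mark FAPLs within each library were also set side by side. At least 2-fold above the other precursor cells were 189 genes in wFAPLs and 175 in bFAPLs, and 111 were in both sets, 58.7% of the white and 63.4% of the brown set. The clusters were named on these same cells, so both sets follow in part from that naming. No share over all genes was set beside the overlap, which is a description. Between the depots the shared genes had a median log2 ratio of 0.08. Past 2-fold were 8 of the 111, 5 higher in wFAPLs and 3 in bFAPLs, where 1.04% and 0.646% of all genes were. Prex2, Kcnma1, Gdf10, Myh11 and Epha3 were higher in wFAPLs, and Rgs5, Slc1a6 and Bmp4 in bFAPLs. Bmp4, for example, stood 2.75 log2 units above the other precursor cells in wFAPLs and 2.71 in bFAPLs; its level in those other cells was 2.63 CPM in WAT and 6.67 CPM in BAT. Prdm6 stood 2.28 log2 units above them in wFAPLs and 0.72 in bFAPLs.

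Male and female cells, called from Xist and Y-linked genes, came from the same pools and gave the comparison apart. The wFAPLs held 195 female and 57 male cells, and the bFAPLs 223 and 47, so the male share was 22.3% (17.3 to 27.9%) and 16.8% (12.6 to 21.8%). Of 94 genes at least 2-fold higher in wFAPLs, leaving out the sex genes, 67 were past 2-fold in both sexes and 91 on the same side. Of the 57 on the brown side that are reported here these numbers were 36 and 55. Since the genes were chosen by their ratio over all cells, of which 76.2% of wFAPLs and 79.9% of bFAPLs were female, the direction in female cells is largely set by the choice. The 5 genes with opposite sides were Igfbp5, Ntm, Lyz2, Mtss1 and Rasgrp2. Hoxc9 had a log2 ratio of 4.15 in female and 3.85 in male cells, Epha3 of 1.78 and 1.32, Col8a1 of -2.82 and -2.86, and Hoxa5 of -2.53 and -2.48.

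**Figure D5:**
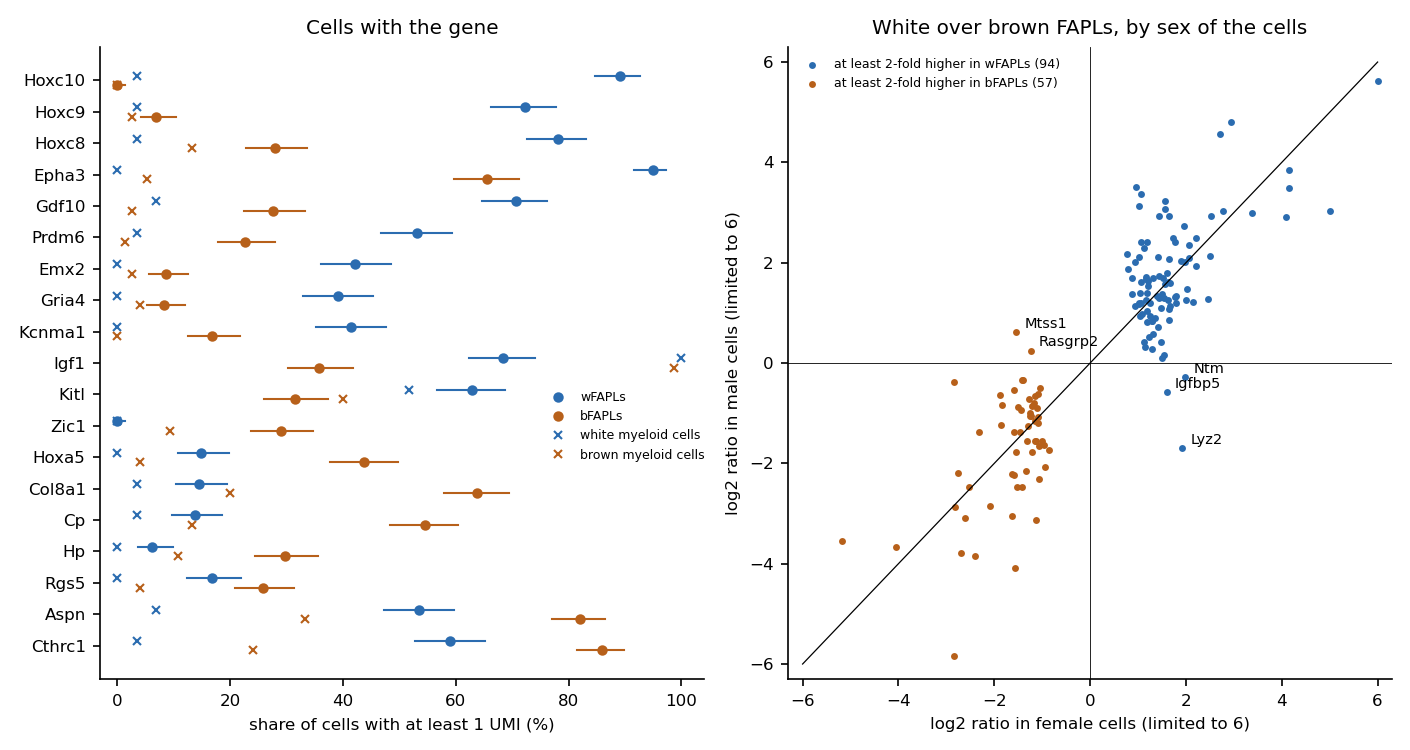
Left, the share of wFAPLs and bFAPLs with at least 1 UMI of a gene, in percent with 95% Clopper-Pearson intervals, with crosses for the myeloid cells of the same library. Right, log2 ratios of wFAPLs over bFAPLs in female (horizontal) and male (vertical) cells, limited to 6, for the 94 and 57 genes past 2-fold; 91 and 55 of them lie on the same side of 0 in both sexes, and the 5 that do not are named.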

How the data were processed

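Single-cell RNA sequencing libraries of 1 white and 1 brown culture were analysed. The authors deposited raw counts of UMIs per gene and cell over 32285 genes, which were made with Cell Ranger 7.0.1 and mm10 per the submitters' processing notes. Cells with 3900 to 7700 genes (found in at least 3 cells), 1.7 to 5% mitochondrial UMIs and 6000 to 60000 UMIs were kept, as in the study. Cluster names were the authors', for the 1999 precursor cells per depot that the tables used here name, which is part of each cluster. No doublet caller was run. The 2 libraries shared 9 barcodes, 1 of them among FAPLs.

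UMIs were summed per cluster and scaled to CPM, and the 23149 genes under 10 CPM in both FAPL clusters were left out. Levels have exact Poisson, ratios exact conditional binomial and shares of cells Clopper-Pearson intervals at 95%. A count of 0 was set to 3 counts over the cluster. No p-value was computed, since cells of 1 library are not replicates. PCR copies were collapsed by UMI. Shares were also computed after thinning each cell to 10000 UMIs. Phases were called from the cycle genes of Seurat 5.3.0 (R 4.3.3), and sums were made with pandas 2.3.3, scipy 1.17.1, numpy 2.4.6, scikit-learn 1.9.0 and scanpy 1.11.5 (Python 3.11.15), and plots with matplotlib 3.10.9. Gene positions are from the GENCODE annotation, and promoters are from RefSeq (GRCm38.p6). The ratios, their 2-fold calls and their intervals were tested on simulated Poisson counts. These counts have no spread between cells, so they cannot show how the intervals do where UMIs lie in few cells. Shares of cells, thinning, sex calls and names for unlabelled cells were not simulated.

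The genes named are the 15 with the largest ratio in each direction at 20 CPM or more, members of the gene lists past 2-fold or with the highest level, the 10 with the largest change of ratio against CAPs in each direction, and genes the study names. Some genes that this rule covers are not reported here. The members and lists were chosen with earlier results of these data known. Alternatives were other minimum levels, centred ratios, other totals, means over cells, thinned cells, cells of 1 phase or sex, names for unlabelled cells from the majority of their 15 nearest labelled cells (which gave 81.6% of held-out wFAPLs and 85.7% of bFAPLs their own name), and cells without certain genes. Leaving out cells with a Tyrobp or C1qa UMI was chosen after seeing the data. Other minimum levels leave the ratio of a gene unchanged. The counts of alternatives in which a gene stayed past 2-fold thus include passes fixed in advance.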

Additional observations from a re-analysis of the deposited data

Results flagged for a closer look

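The ratio of white over brown had opposite directions in FAPLs and CAPs for 2 genes past 2-fold in both pairs at 10 CPM or more. Myh11 had a log2 ratio of 1.08 in FAPLs and -1.09 in CAPs. Abi3bp had a log2 ratio of 1.12 in FAPLs and -2.04 in CAPs. In FAPLs, Myh11 stayed past 2-fold in 9 of 12 alternatives, with a log2 ratio as low as 0.73. Abi3bp did so in 11 of 13, with a log2 ratio as low as 0.93. These counts include other minimum levels, which leave a ratio unchanged. With 1 library per depot, the difference between the pairs was not tested.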

How the results depend on the processing

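The counts of 95 and 59 genes moved most with the minimum level and in male cells alone. With a minimum of 50 CPM they were 27 and 13, and with no minimum 1148 and 739. In male cells alone they were 316 and 246, and with cells thinned to 10000 UMIs 125 and 94. The share that passed 2-fold the same way in the other precursor cells, 58.4%, was 77.5% at 50 CPM, 22.5% with no minimum, 20.3% in male cells, 43.8% after thinning and 47.4% without cells with a Myh11 UMI. The share of the CAP genes that did so in FAPLs, 30.8%, was 25.8% at 50 CPM, 23.9% with no minimum and 25.0% in male cells. Under the other alternatives the counts were 86 to 122 and 56 to 71.

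Of 80 named genes past 2-fold, 50 stayed past it and 77 on the same side under each of the 13 alternatives that gave them a value. Some of these passes were fixed in advance. Other minimum levels leave the ratio of a gene unchanged, and other totals shift all ratios by a common small amount. Leaving out bFAPLs with a Hoxc8, Hoxc9 or Hoxc10 UMI raises the ratios of Hoxc8 and Hoxc9 by construction. The direction of Lyz2 turned in G1 cells (-1.95), in male cells (-1.70) and without cells with a Tyrobp or C1qa UMI (-1.47). In male cells it also turned for Igfbp5 (-0.58) and Ntm (-0.28). The cause was not tested. No paired analysis was possible because each depot has 1 library and no result comes from a test. A low level is limited by depth, since 3 counts correspond to 0.418 CPM in wFAPLs and 0.398 CPM in bFAPLs.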
